A study of Homo sapiens with 9 samples.

Results

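The comparison described here sets the second hairpin against TRIB3 beside the first, gene by gene, in HepG2, a human liver cancer cell line. Its members were all genes with at least 1 FPKM in at least 3 of the 9 libraries of the series, which kept 11265 of 24204 gene symbols. FPKM scales the sequenced fragments of a gene to its length and to the mapped fragments of the library, so levels can be compared between genes, while a comparison between libraries depends on the scaling. Cells received for 48 h a lentivirus with a control hairpin (shCtrl), with the first hairpin to TRIB3 (shTRIB3-1) or with the second (shTRIB3-2), and were then held in puromycin for a further 48 h. Each group held 3 libraries. All 3 groups shared the cell line, the virus, the puromycin selection, and a high-glucose medium with 10% serum as the labels describe it. The RNA-seq paragraph of the study's methods names cells deprived of glutamine and does not mention the knockdown cells, so the medium at harvest is not certain. Which hairpin vector these libraries carried is not stated, the infected cells were a selected pool, and the target of the control hairpin is not given in the sources used here. The labels do not say that the libraries of a group came from separate cultures, so p-values measure the spread between these libraries, which may be technical.

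TRIB3 encodes a pseudokinase of the Tribbles family, proteins that keep a kinase fold without efficient catalysis and act as scaffolds for other proteins. It is a target of the transcription factor ATF4 and rises when cells run short of amino acids or accumulate unfolded proteins. A short hairpin RNA is cut in the cell into a small guide RNA that pairs with its target messenger and directs its cleavage. A pair of guides against the same messenger shares the intended target but not its chance matches to other messengers.

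Both target sites lay in the coding sequence of TRIB3, on the plus strand of chromosome 20 (GRCh38). The site of shTRIB3-1 was at chr20:388072-388092 in exon 2 of 4, and that of shTRIB3-2 at chr20:391473-391493 in exon 3, by the GENCODE transcript ENST00000217233.9. The targets are shown because they are what the compared groups differ in by design. Capitals mark the bases that pair with positions 2 to 8 of the guide, its seed.
shTRIB3-1: tggatgacaacttAGATACCg
shTRIB3-2: gccgtgctcttccGCCAGATg
Of the 21 bases, 42.9% were G or C in the first target and 66.7% in the second, and the seed-pairing letters of the targets differ.

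TRIB3 itself was lower with the second hairpin. It stood at 34.1, 32.7 and 34.0 FPKM in the shTRIB3-1 libraries and at 20.6, 20.7 and 20.4 in the shTRIB3-2 libraries, against 67.9, 65.8 and 66.6 in shCtrl. All 3 groups were apart from each other. The shTRIB3-2 level was 61.1% of the shTRIB3-1 level, a log2 difference of -0.71 (SE 0.030, limma adjusted p 9.54e-09). Measured against shCtrl, 50.3% of TRIB3 remained with shTRIB3-1 and 30.8% with shTRIB3-2. The order of the groups by TRIB3 was thus shCtrl, shTRIB3-1, shTRIB3-2, and the other genes were read against this order. By size of the difference between the hairpins, TRIB3 ranked 511 among the tested genes.

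**Figure D1:**
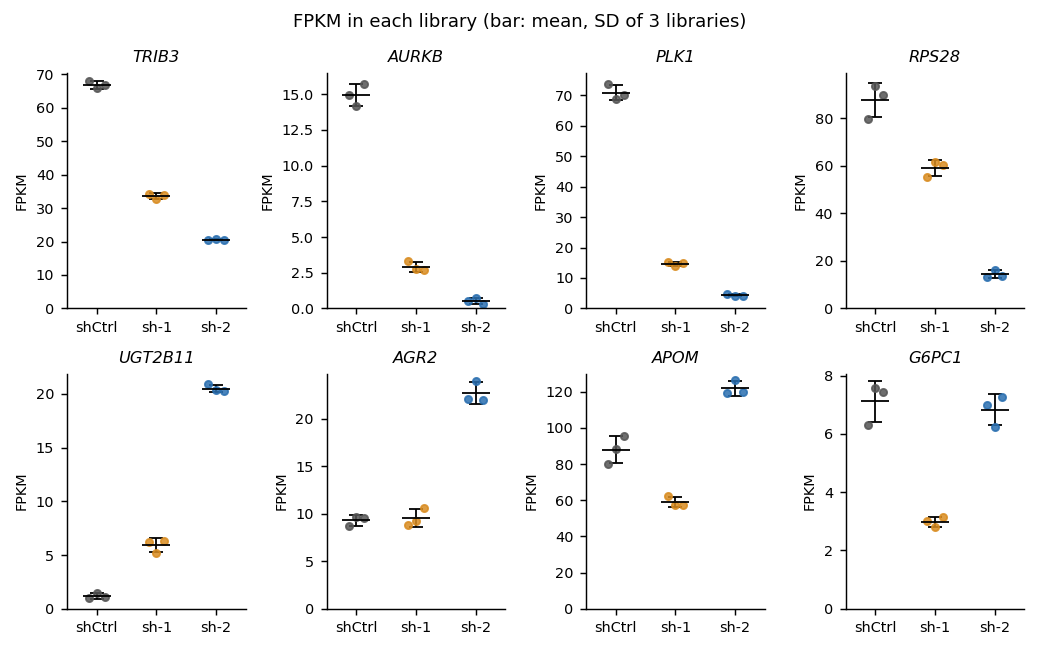
FPKM of 8 genes (y axis, linear from 0) in the 3 libraries of shCtrl, shTRIB3-1 (sh-1) and shTRIB3-2 (sh-2), with the bar at the mean and whiskers of 1 SD. TRIB3, AURKB, PLK1 and RPS28 stepped down at both steps, UGT2B11 stepped up at both, AGR2 was high in shTRIB3-2 alone, and APOM and G6PC1 were lowest in shTRIB3-1.

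Most differences between the hairpins were small, and the large ones were mainly falls. A gene was called at a limma adjusted p under 0.05 and an absolute log2 difference above 1, on log2(FPKM + 0.1). By this rule 234 genes were called, 2.08% of those tested, with 32 higher in shTRIB3-2 (0.284%) and 202 lower (1.79%). Under quantile normalization the split was 65 higher and 199 lower. The libraries of the hairpins did not overlap for 232 of the 234 called genes, as for 54.5% of all tested genes. Without the fold threshold 5159 genes passed (45.8%), 2832 higher (25.1%) and 2327 lower (20.7%), but centring each library on its median turned this split to 2383 higher and 2673 lower. The median absolute log2 difference over all tested genes was 0.15 and the median difference 0.025, with a median SE of 0.060. Called genes had low levels, with a median of 3.08 FPKM in the higher of the hairpin groups against 8.50 for all tested genes. Only 42 called genes reached 10 FPKM there and 11 reached 100.

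**Figure D2:**
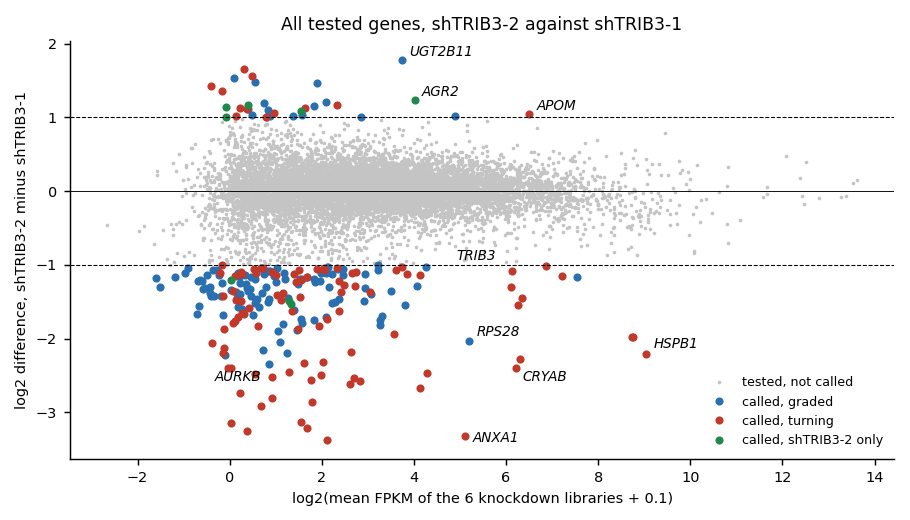
Log2 difference of shTRIB3-2 minus shTRIB3-1 (y axis) against the log2 mean FPKM of the 6 knockdown libraries (x axis) for the 11265 tested genes, with dashed lines at a log2 difference of 1 either way. Of the called genes (coloured by the order of the 3 groups), 202 lie below the lower line and 32 above the upper one, and TRIB3 lies among the uncalled genes at -0.71.

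The called genes were then placed by the order of the 3 groups. A gene was graded where the step from shTRIB3-1 to shTRIB3-2 continued the step from shCtrl to shTRIB3-1, and turning where it went back against it, in both cases with an adjusted p under 0.05 for the first step. A gene whose first step did not pass was placed as shTRIB3-2 only. Graded genes thus moved one way as TRIB3 fell, with it or opposite to it, and turning genes changed direction at the middle TRIB3 level. The steps share the shTRIB3-1 libraries, so an error in those libraries moves the steps in opposite directions, and the counts carry no test. Among called genes 122 were graded (107 lower and 15 higher), 104 were turning (92 lower and 12 higher) and 8 were shTRIB3-2 only. With the adjusted p alone, 1946 genes were graded, 2153 turning and 1060 shTRIB3-2 only. Of the called genes, 215 were also called against shCtrl with at least 1 hairpin.

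The falls were of different kinds. Graded falls went from a median level of 8.79 FPKM in shCtrl through 2.39 with the first hairpin to 0.812 with the second. Graded falls under 1 FPKM in every library of both hairpins were tested only because shCtrl was high. Their first step down was fixed by the filter. Turning falls went from a median of 0.372 FPKM in shCtrl up to 4.32 with the first hairpin and back to 1.15 with the second. In 60 of the 92 turning falls the shCtrl mean was under 1 FPKM, in 67 shTRIB3-2 stayed above shCtrl with an adjusted p under 0.05, and in 17 it lay below. Where the shTRIB3-2 libraries were under 1 FPKM as well as those of shCtrl, the gene was tested only because shTRIB3-1 was high. The rise and fall of such genes was fixed by the filter.

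**Figure D3:**
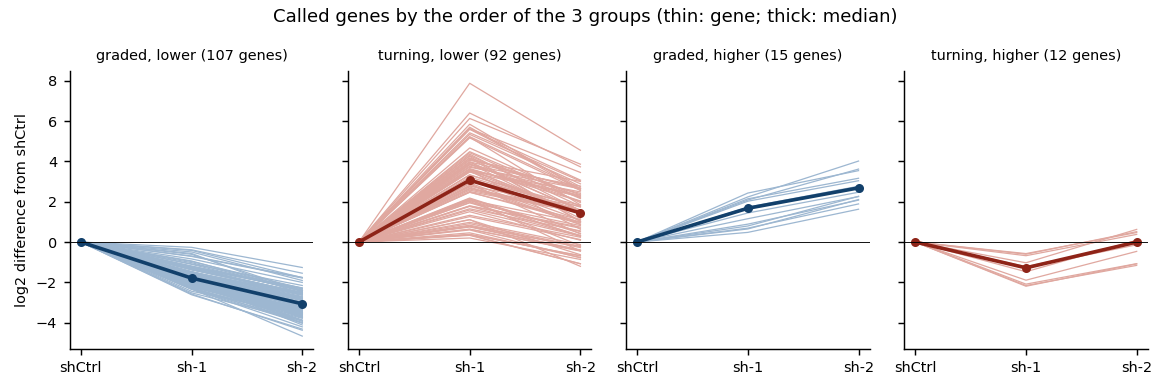
Log2 difference from shCtrl (y axis) in shTRIB3-1 (sh-1) and shTRIB3-2 (sh-2) for the called genes of 4 classes, each thin line a gene and the thick line the median. The median of the 107 graded falls goes from -1.79 to -3.07, and that of the 92 turning falls from 3.07 back to 1.44.

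Genes of mitosis made up the largest block of graded falls. Of 71 tested genes of mitotic entry and the spindle, 45 were called lower, against 1.79% of all tested genes, and none higher, and by the adjusted p 70 were lower. All 70 were graded. The median log2 difference of the list was -1.13 against 0.025 over all tested genes, with values from -2.35 to -0.069. Its median level went from 12.95 FPKM in shCtrl to 3.53 in shTRIB3-1 and 1.37 in shTRIB3-2. Relative to shTRIB3-1, members kept a median of 42.7% of their level in shTRIB3-2 (range 17.5% to 95.4%).

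AURKB, the kinase of the chromosomal passenger complex that corrects faulty attachments of chromosomes to the spindle, fell most. It measured 3.32, 2.75 and 2.66 FPKM with shTRIB3-1 and 0.529, 0.698 and 0.306 with shTRIB3-2, a log2 difference of -2.35 (SE 0.19, limma adjusted p 1.47e-06), from 15.0, 14.1 and 15.7 in shCtrl. These shTRIB3-2 values rest on 19 to 43 fragments per library. With 1 added in place of 0.1 before taking logs its difference was -1.38.

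PLK1, the kinase that drives entry into mitosis and spindle assembly, had levels of 15.2, 13.97 and 15.0 FPKM with shTRIB3-1 and 4.76, 4.06 and 4.18 with shTRIB3-2, after 73.7, 68.7 and 70.2 in shCtrl. The difference between the hairpins was -1.74 (SE 0.059, limma adjusted p 1.10e-09), and no library of 1 group reached the range of another. CDK1, the cyclin-dependent kinase of mitosis, differed by -1.50 (SE 0.070), and its partners CCNB1 and CCNB2 by -1.36 and -1.47. Among called genes of kinesin motors, KIFC1 fell by 2.20, KIF2C by 1.88, KIF20A by 1.80 and KIF4A by 1.46 on the log2 scale. KIFC1 was named by the size of its change and was no member of the list.

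Called genes of the list also act in the spindle checkpoint, which delays division until chromosomes are attached. BUB1 differed by -1.75, BUB1B by -1.50, TTK by -1.47 and MAD2L1 by -1.19, while their target CDC20, an activator of the anaphase-promoting complex, differed by -1.70. MKI67, the proliferation marker, went from a mean of 6.78 ± 0.459 FPKM to 3.21 ± 0.199 (SD, n = 3 each), a log2 difference of -1.05. ANLN, the actin-binding scaffold of the division furrow, was placed differently from most. It had lost less than PLK1 with shTRIB3-1, at 14.6, 15.3 and 15.0 FPKM against 22.4, 22.9 and 23.4 in shCtrl, and stood at 4.30, 3.95 and 4.26 in shTRIB3-2. Exons of other genes overlap 86.8% of the exon bases of NUSAP1 and 57.6% of those of PRC1 on the same strand, so these values are uncertain.

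Genes that copy DNA were next. Among 56 tested genes of DNA replication and S phase, 16 were called lower and none higher, against 1.79% and 0.284% of all tested genes. By the adjusted p 51 were lower and 1 higher, against 20.7% and 25.1%, and the median difference was -0.79. CDT1, which loads the replicative helicase, measured 2.71, 2.48 and 2.60 FPKM with shTRIB3-1 and 0.516, 0.496 and 0.503 with shTRIB3-2 (-2.15, SE 0.070, limma adjusted p 9.60e-10). MCM5, MCM7 and MCM2, subunits of that helicase, differed by -1.79, -1.29 and -1.21. TK1 and RRM2, enzymes of deoxynucleotide supply, differed by -1.71 and -1.12. Histone genes of S phase did not follow this order. Of 10 tested, 8 were lower in shTRIB3-2 by the adjusted p and none was called, but all 8 were turning. The median of all 10 relative to shCtrl was 0.87 in shTRIB3-1 and 0.43 in shTRIB3-2 on the log2 scale. Histone genes have near-identical copies, among which fragments may be split.

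Homologous recombination genes, which repair double-strand breaks from a sister copy, moved less evenly. Of 35 tested, 7 were called lower and none higher, against 1.79% and 0.284% of all tested genes. By the adjusted p 22 were lower, 4 higher and 9 did not pass, with a median of -0.41. Over all tested genes 20.7% were lower and 25.1% higher. Among the 7 called were RAD54L (-1.38), POLQ (-1.24), EME1 (-1.22), EXO1 (-1.20), FANCD2 (-1.14) and FANCG (-1.04). With 1 added before taking logs in place of 0.1, these 6 differed by -0.84 to -0.46, under the fold threshold, and the median of the list was -0.27. Among the 19 members left by a filter at 5 FPKM the median was -0.11. EME1 and EXO1 were under 1 FPKM in every library of both hairpins. They passed the level filter through shCtrl alone, so their first step down was fixed by it. POLQ encodes the polymerase of a different repair route, end joining through short matching stretches. Of the 107 graded falls, 68 were in the lists of mitosis, replication or recombination and 39 were in none of them.

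The genes that the study followed by other assays were read for the step between the hairpins. The repair genes among them were chosen by the study with these libraries in hand, so their direction is not independent evidence. BRCA1, a repair protein of double-strand breaks, had 1.52, 1.66 and 1.92 FPKM with shTRIB3-1 and 0.879, 0.908 and 0.872 with shTRIB3-2, a difference of -0.86 (SE 0.091, limma adjusted p 1.34e-05) that stayed under the fold threshold. The groups did not overlap.

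PARP1, which marks broken DNA with ADP-ribose, stood at 26.2, 26.4 and 26.2 FPKM with shTRIB3-1 and 26.3, 25.4 and 26.6 with shTRIB3-2, and the libraries overlapped (-0.0077, SE 0.030, limma adjusted p 0.857), although both were below the shCtrl values of 46.9, 47.2 and 47.8. JUN differed by 0.0070 (SE 0.033, adjusted p 0.884) and SESN2 by 0.021 (SE 0.054, adjusted p 0.780). DDX5, an RNA helicase, was slightly higher with shTRIB3-2 (0.087, limma adjusted p 0.0356). It was not called, and its adjusted p no longer passed under 8 alternatives. CEBPB was lower by 0.16 on the log2 scale and DDIT3, the stress factor CHOP, was higher by 0.54. ASNS, the asparagine synthetase, was under the level filter in all groups and had no test. It had 25 to 38 fragments per library in shCtrl, 24 to 28 with shTRIB3-1 and 4 to 7 with shTRIB3-2. Why so few fragments were counted for it, also in shCtrl, was not tested.

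RPS28, a protein of the small ribosomal subunit, stood apart from the other ribosomal protein genes. It measured 55.3, 61.5 and 60.4 FPKM with shTRIB3-1 and 13.3, 16.4 and 13.5 with shTRIB3-2, after 79.7, 93.7 and 89.8 in shCtrl. The groups were far apart, with a log2 difference of -2.03 between the hairpins (SE 0.079, limma adjusted p 4.68e-09). The other 64 ribosomal protein genes ranged from -0.86 to -0.0063, with a median of -0.37. In all, 62 of 65 were lower by the adjusted p, against 20.7% of all tested genes, and none was higher. The list thus moved together by a small step. Of these 62, 33 were graded, 28 were shTRIB3-2 only and 1 was turning. RPS28 is a short gene whose exon bases are 20.6% overlapped by exons on the opposite strand, and ribosomal protein genes have many near-identical copies in the genome. In a list of translation factors and related genes, written after the values were seen, 15 of 16 were lower by the adjusted p, with a median of -0.43. The 15 included EEF1B2 (-0.76) and TPT1 (-0.73).

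Heat shock genes were mostly highest at the middle TRIB3 level. They encode chaperones that refold damaged proteins and are driven by the factor HSF1. Of 26 tested, 8 were called lower and none higher, against 1.79% and 0.284% of all tested genes. By the adjusted p 23 were lower, against 20.7% of all tested genes, and 22 of these 23 were turning. The median of the list was 0.69 with shTRIB3-1 and 0.27 with shTRIB3-2 relative to shCtrl, and -0.53 between the hairpins.

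HSPB1, a small chaperone, had 897, 869 and 842 FPKM with shTRIB3-1 and 179.7, 199 and 187 with shTRIB3-2, against 227, 209.7 and 206 in shCtrl. It was thus high in the shTRIB3-1 libraries alone, and the shTRIB3-2 libraries lay below those of shCtrl. The log2 difference between the hairpins was -2.20 (SE 0.047, limma adjusted p 5.41e-11). HSPA1A, an inducible HSP70, stood at 80.3, 82.4 and 78.6 FPKM in shCtrl, climbed to 691, 722 and 623 with the first hairpin and was 168, 175 and 172 with the second. Its near-identical neighbour HSPA1B differed by -1.98, beside -1.98 for HSPA1A, and fragments may be split between the pair.

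HSPA6, another inducible HSP70, was nearly silent in shCtrl at 1.78, 1.98 and 1.52 FPKM, rose to 128, 137 and 126 with shTRIB3-1 and was 25.8, 26.6 and 28.1 with shTRIB3-2. CRYAB, a small chaperone of the crystallin family, had the same order, with 3.04, 2.82 and 2.53 FPKM in shCtrl, 127, 129 and 117 with shTRIB3-1 and 23.1, 24.4 and 22.9 with shTRIB3-2. For both the 3 groups were apart, and shTRIB3-2 was lower than shTRIB3-1 by 2.27 and 2.40 on the log2 scale. The cochaperones BAG3 (-1.45), DNAJB1 (-1.30) and HSPH1 (-1.14) completed the 8 called members. SERPINH1, a collagen chaperone named after its values were seen, went from 114 ± 3.26 FPKM to 39.2 ± 0.616. By contrast 26 chaperones of the endoplasmic reticulum gave none called, 6 higher and 5 lower by the adjusted p, and a median of -0.0051. These counts were near the shares of all tested genes, of which 25.1% were higher, 20.7% lower and 2.08% called. CALR was at -0.28 and PDIA4 at -0.26.

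**Figure D4:**
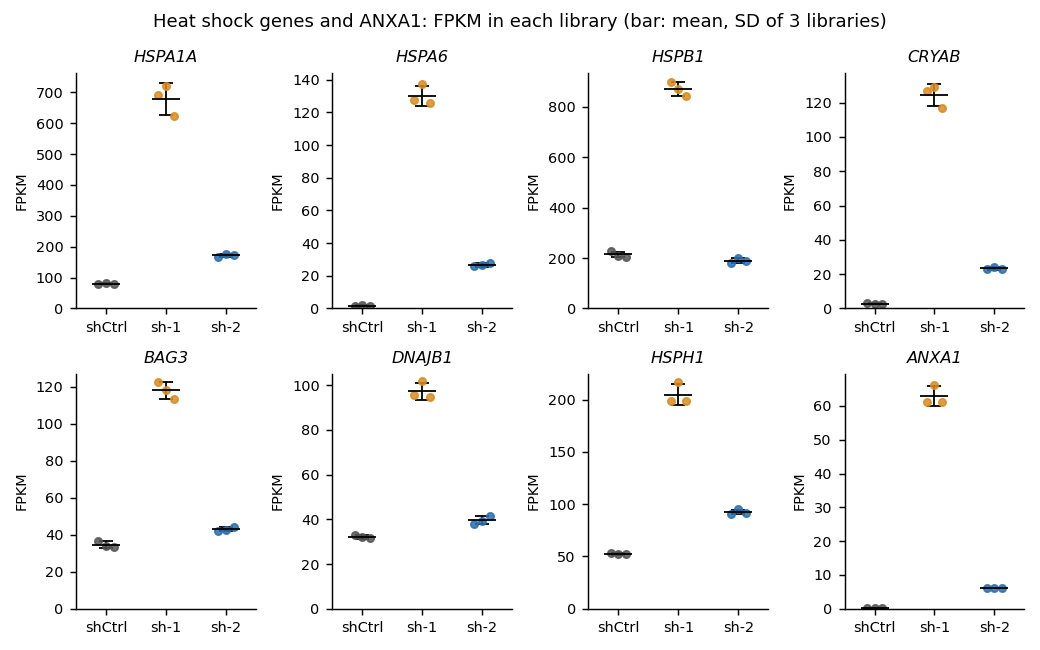
FPKM of 7 heat shock genes and ANXA1 (y axis, linear from 0) in each library of shCtrl, shTRIB3-1 (sh-1) and shTRIB3-2 (sh-2), with the mean and 1 SD. In each panel the 3 shTRIB3-1 libraries are the highest, and in HSPB1 the shTRIB3-2 libraries lie below those of shCtrl.

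The largest falls of all were in genes that were near 0 in shCtrl and high with shTRIB3-1. Those under 1 FPKM in every shCtrl and shTRIB3-2 library passed the level filter only through shTRIB3-1. Their peak in shTRIB3-1 was thus fixed by the filter. MAGEB2, TDRG1, CD300LB, IL20RB, HLA-G, PRR20G and LOC105378690 were such genes, and ANXA1, SPANXB1 and CRABP2 were not. ANXA1, a calcium-dependent membrane-binding protein (chromosome 9, 73151865 to 73170393, GRCh38), had 0.151, 0.199 and 0.151 FPKM in shCtrl, 61.1, 66.3 and 61.2 with shTRIB3-1 and 6.16, 6.26 and 6.10 with shTRIB3-2. The hairpins differed by -3.33 (SE 0.073, limma adjusted p 5.41e-11) without overlap. The other 19 tested annexins and S100 proteins held no called gene. Genes normally restricted to testis were among the same falls. MAGEB2 had 2.44, 2.15 and 2.14 FPKM with shTRIB3-1 and 0.212, 0.156 and 0.0861 with shTRIB3-2, from 5 to 12 fragments per library in the latter, and SPANXB1 had 30.0, 34.6 and 26.1 and 4.96, 4.25 and 4.71. These were the 2 called of 5 tested cancer-testis genes, and the other 3 did not pass the test. The list had 39 genes, of which 27 were among the symbols of the data and only 5 passed the level filter. Since MAGEB2 passed it through shTRIB3-1 alone, 2 of 5 is not a share of the family. SPANXB1 belongs to a family of near-identical copies.

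TDRG1 and CD300LB were listed at 0 in all 3 shCtrl libraries. TDRG1, a testis transcript, had 5.58, 6.39 and 5.10 FPKM with shTRIB3-1 and 0.474, 0.490 and 0.607 with shTRIB3-2. CD300LB, a receptor of myeloid cells, had 5.59, 5.31 and 4.48 and 0.382, 0.576 and 0.546. Exons on the opposite strand overlap 54.9% of the exon bases of TDRG1. Across all turning falls, 5 genes were at 0 in every shCtrl library. IL20RB, a cytokine receptor subunit (-2.92), HLA-G, a class I antigen of the placenta with 25.8% of its exon bases overlapped on the opposite strand (-2.80), CRABP2, a retinoic acid carrier (-2.61), PRR20G (-2.86) and the uncharacterised LOC105378690 (-3.37) completed the 10 largest falls among genes with a mean of at least 2 FPKM in a hairpin group, all turning. For 77 of the 92 turning falls shTRIB3-1 was called above shCtrl, and for 54 both hairpins were.

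Matrix and adhesion genes were mixed. Of 35 tested, 3 were called lower, against 1.79% of all tested genes. By the adjusted p 10 were higher and 10 lower, near the 25.1% and 20.7% of all tested genes, and the median was 0.018. The 3 were ITGA5, an integrin for fibronectin (-1.59), LAMB3, a laminin chain (-1.27), and TAGLN, an actin-binding protein (-1.17). Each was turning. IER5, the called member of 23 immediate early genes, had 9.16, 9.52 and 8.40 FPKM with shTRIB3-1 and 4.24, 4.17 and 4.08 with shTRIB3-2.

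Some genes lay on opposite sides of shCtrl with the hairpins. By the adjusted p this held for 20 of the 234 called genes, 17 lower and 3 higher in shTRIB3-2. CSRP2, a LIM-domain protein named after its values were seen, was the only gene called in opposite directions against shCtrl. It had 6.11, 7.29 and 6.52 FPKM with shTRIB3-1 and 1.35, 1.23 and 1.16 with shTRIB3-2, against 3.57, 2.76 and 2.77 in shCtrl, and no groups overlapped. UGT1A6, whose 3′ exons are shared by the UGT1A genes, went from 2.66 ± 0.231 FPKM to 1.16 ± 0.205.

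Rises were fewer. UGT2B11, a glucuronosyltransferase, rose most, with 6.24, 5.17 and 6.34 FPKM with shTRIB3-1 and 20.9, 20.4 and 20.3 with shTRIB3-2 after 0.992, 1.46 and 1.10 in shCtrl. It was graded, with a log2 difference of 1.78 between the hairpins (SE 0.12, limma adjusted p 2.59e-07), and its relatives have similar sequences. F13B, the carrier subunit of coagulation factor XIII, had 1.78, 1.75 and 2.15 FPKM and then 5.61, 4.99 and 5.51 (1.46). BCL2A1, an inhibitor of apoptosis, had 1.12, 0.419 and 0.584 FPKM and 2.06, 1.75 and 2.22 (1.47, SE 0.27), from 12 to 65 fragments per library. JAML, an adhesion molecule (1.20), TBX10, a T-box factor (1.15), and IFIT2, an antiviral protein (1.19), were graded as well. Of the 15 graded rises, 9 had a shCtrl mean under 1 FPKM. Where a rise was under 1 FPKM in every shCtrl and shTRIB3-1 library, its direction was fixed by the filter. IFIT2 was the called member of 25 interferon-stimulated genes, of which 11 were higher and 4 lower by the adjusted p, with a median of 0.17. The shares over all tested genes were 25.1% higher and 20.7% lower.

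Other rises turned back toward shCtrl. G6PC1, the liver phosphatase that releases free glucose, had 3.02, 2.80 and 3.13 FPKM with shTRIB3-1 and 6.98, 6.24 and 7.28 with shTRIB3-2, within the shCtrl range of 6.30, 7.59 and 7.45 for 2 of the 3. APOM, an apolipoprotein that carries sphingosine phosphate, had 62.3, 57.2 and 57.4 FPKM and 119, 127 and 120.0, on either side of 80.2, 88.5 and 95.5 in shCtrl, and differed by 1.05 (SE 0.057, limma adjusted p 6.74e-08). SAA4, a constitutive serum amyloid (1.56), ITIH1, a plasma protein that binds hyaluronan (1.06), and CYP3A7, the fetal liver P450 (1.66), were low, at under 3 FPKM in each group. Same-strand exons of other genes overlap 75.6% of the exon bases of SAA4 and 42.6% of those of CYP3A7. DBH-AS1, a long noncoding RNA, differed by 1.12.

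Called genes whose first step did not pass were few. The 5 rises among them had median levels of 0.802 FPKM in shCtrl, 0.712 with shTRIB3-1 and 1.72 with shTRIB3-2. For rises under 1 FPKM in every shCtrl and shTRIB3-1 library, the filter fixed the direction. AGR2, a disulfide isomerase of the endoplasmic reticulum, had 8.68, 9.69 and 9.59 FPKM in shCtrl, 8.80, 9.27 and 10.6 with shTRIB3-1 and 22.1, 24.0 and 22.0 with shTRIB3-2, so the first hairpin overlapped shCtrl and the second did not. Its difference between the hairpins was 1.24 (SE 0.068, limma adjusted p 7.54e-08). GSDMB, a pore-forming gasdermin, rose by 1.08 and NUDT1, which clears oxidised nucleotides, fell by 1.52 on the log2 scale. The other 5, named here after their values were seen, were PLAU, TM4SF1-AS1 and LOC107984872 higher and NRARP and LOC105376695 lower. In LOC105376695 shTRIB3-2 did not differ from shCtrl by the test either (limma adjusted p 0.0960).

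Other lists had small medians. Over all tested genes 25.1% were higher and 20.7% lower by the adjusted p and 2.08% were called. Of 33 tested hepatocyte genes, 24 were higher with shTRIB3-2 by the adjusted p, none was lower and 2 were called, with a median of 0.25. AFP and TTR differed by 0.70 and 0.63, whereas the liver factor FOXA2 did not pass (0.071). Of 19 acute-phase genes 13 were higher and 2 lower (median 0.29), and 13 of these 15 were turning. Of 24 cholesterol synthesis genes 19 were higher and 1 lower (median 0.23), with CYP51A1 at 0.42 and ACAT2 at 0.42, and 15 of the 20 were graded. Of 29 apolipoprotein and fat handling genes 17 were higher and 2 lower, with a median of 0.24, and PLIN2, the coat protein of lipid droplets, stood at 547, 574 and 548 FPKM with shTRIB3-1 and 707, 741 and 715 with shTRIB3-2, against 228, 222 and 215 in shCtrl. Of 23 drug metabolism genes 13 were higher and 5 lower (median 0.30), with CYP3A7 and UGT1A6 called in opposite directions.

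Targets of p53 were mostly higher with shTRIB3-2 than with shTRIB3-1. Of 38 tested, 32 were higher by the adjusted p, against 25.1% of all tested genes, and 1 was lower. None was called, and the median was 0.32. Relative to shCtrl, the median of the list was -0.30 with shTRIB3-1 and 0.0084 with shTRIB3-2. Only 8 of the 32 were graded and 21 were turning. CDKN1A, the inhibitor of cyclin-dependent kinases p21, was graded, at 145, 147 and 151 FPKM with shTRIB3-1 and 205, 212 and 202 with shTRIB3-2 after 78.9, 76.9 and 76.7 in shCtrl. MDM2, which marks p53 for breakdown, was turning, at 38.3, 39.6 and 39.5 FPKM and 57.1, 57.5 and 57.2 after 56.5, 56.0 and 54.7.

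ATF4 targets, which include TRIB3, were mostly lower, read against the 20.7% of all tested genes that were lower and the 25.1% that were higher. Of 44 tested, 34 were lower and 2 higher by the adjusted p, none was called, and the median was -0.33. TRIB3, the target of the hairpins, was itself among the 34, and DDIT3 (0.54) was among the 2 higher. SLC1A5, a glutamine transporter, had 56.1, 54.4 and 55.9 FPKM with shTRIB3-1 and 30.4, 30.6 and 30.4 with shTRIB3-2, and was turning since shCtrl stood at 32.9, 34.5 and 31.7. Of 27 NRF2 targets 18 were lower and 2 higher (median -0.17), and of 27 lysosome and autophagy genes 16 were lower and 3 higher (median -0.10). Of 31 glycolysis and hypoxia genes 13 were lower and 6 higher (median -0.12), with the glucose transporters SLC2A3 at -0.96 and SLC2A1 at -0.47. Of 13 NF-kB targets 6 were higher and 2 lower, of 12 metallothioneins 2 were higher and 1 lower, and of 14 genes of the RNA interference machinery 3 were higher and 1 lower. Partners of Tribbles proteins, AKT and COP1 gave 4 higher and none lower of 15, near the share of all tested genes that were higher, among them MAP2K4 (0.29) and PPARA (0.29). Of the 13 mitochondrially encoded genes none passed the test, with ND1 at 0.18 (adjusted p 0.0884) and COX1 at 0.16 (adjusted p 0.0830).

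**Figure D5:**
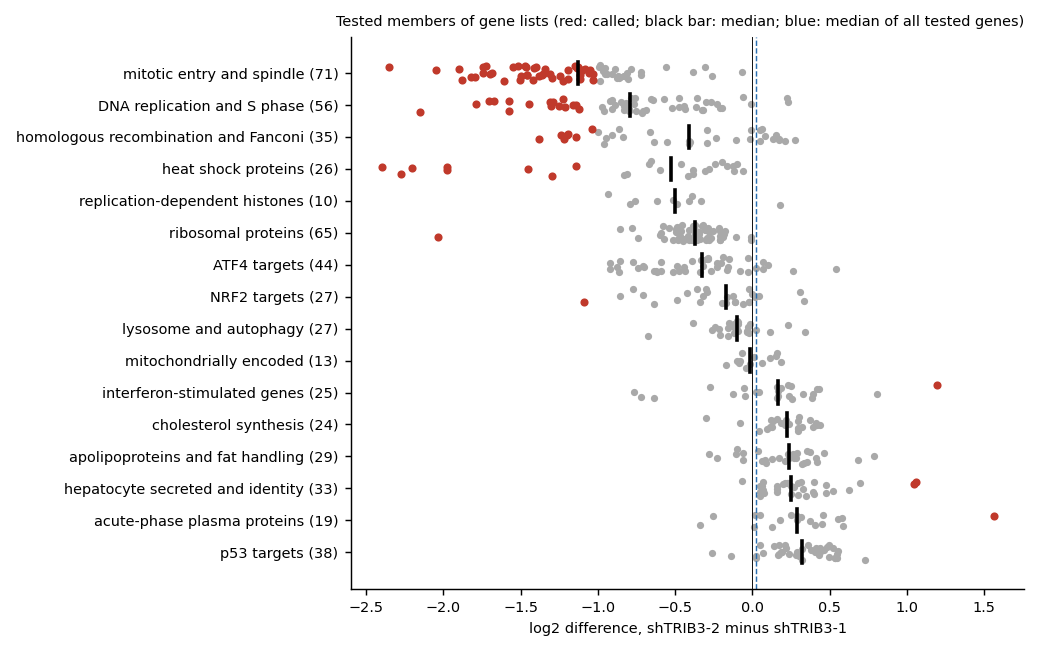
Log2 difference of shTRIB3-2 minus shTRIB3-1 (x axis) for each tested member of 16 gene lists (y axis, number tested in brackets), with called genes in red, the list median as a black bar and the median of all tested genes as a blue dashed line. Medians run from -1.13 for mitotic genes to 0.32 for p53 targets.

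The TRIB3 levels also allowed a test of proportion. TRIB3 changed 1.72 times as much with shTRIB3-2 as with shTRIB3-1 on the log2 scale, so a gene that followed TRIB3 in a straight line would have changed by the same ratio. A contrast for the departure from that line passed at an adjusted p under 0.05 in 6291 of 11265 genes (55.8%), with 3524 above the line and 2767 below it. The error of the ratio itself was not carried into the test. Turning genes depart by construction. Of the 122 called graded genes 37 departed, and among the 107 graded falls 25 fell further than the line and 9 less far. In the mitotic list 40 of 71 did not depart, 13 were below the line and 18 above it. KIF20A (adjusted p 0.764), PLK1 (0.235) and CCNB1 (0.294) did not pass, which does not show that they lie on it. ANLN (1.34e-08) and RPS28 (3.91e-07) were below the line.

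Messengers that resemble a hairpin's target were checked for the difference between the hairpins. In 1 GENCODE transcript per gene, no tested gene other than TRIB3 matched a target with fewer than 3 mismatches. ATXN1 was the match of shTRIB3-1 at 3 mismatches and SBF1 that of shTRIB3-2, with differences of 0.038 and -0.21. At 4 mismatches there were 6 and 12 genes, and none of all these was called. A 7-base match to the seed of shTRIB3-1 was found in the 3′ UTR of 711 of 10499 genes with an annotated one, and their median difference was 0.049 against 0.020 without a match. For shTRIB3-2 the 954 genes with a match had a median of 0.046 against 0.020. Genes with a match had longer 3′ UTRs, with a median of 3551 against 1165 bases for the first hairpin and 3308.5 against 1136 for the second. Among 190 genes called lower with a 3′ UTR, 6 held the first match (3.16%, against 6.77% of all) and 11 the second (5.79%, against 9.09%). Among 26 called higher, 0 held the first match and 1 the second (3.85%). Relative to shCtrl, the median log2 difference with shTRIB3-1 was -0.093 for genes with its match and -0.049 for those without. With shTRIB3-2 it was -0.035 for genes with its match and -0.036 for those without. The result depended on where the guide was taken to start. With the seed of shTRIB3-1 moved 1 base along the guide these medians were -0.1355 and -0.046, and moved 1 base back -0.093 and -0.053. For shTRIB3-2 they were -0.084 and -0.035 moved along, and -0.019 and -0.038 moved back. The moved-back match of shTRIB3-2 was in 15.4% of the 26 called higher, against 13.6% of all. These counts are a description and were not tested.

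Promoters were searched for 3 motifs after the values were seen, in RefSeq promoters (GRCh38.p14, 250 bases before to 50 after the start) of 9088 tested genes with an entry. The cell-cycle gene homology region, TTTGAA on either strand, is known from genes of G2 and mitosis. It was in 9.56% of all 9088 promoters, in 44.8% of the 87 graded falls, in 11.6% of the 69 turning falls and in 63.3% of 60 mitotic genes, but in 2.22% of 45 replication genes. The CCAAT box, on either strand, was in 37.0% of all promoters, 67.8% of graded falls and 26.1% of turning falls. The core of the heat shock element, GAANNTTC, which reads the same on both strands, was in 4.51% of all promoters, 6.90% of graded falls, 15.9% of turning falls and 43.5% of 23 heat shock genes. These sets overlap, since the called mitotic genes are graded falls and the called heat shock genes are turning falls. Among rises, TTTGAA was in 33.3% of 9 graded and 18.2% of 11 turning ones. CCAAT was in 44.4% and 36.4% of these, and GAANNTTC in 22.2% and 0%. Where TTTGAA and GAANNTTC overlap they can share the letters GAA, and a match is a description, not a site of binding. The 200 bases before the start are shown for the 3 mitotic genes and the 3 heat shock genes with the largest called falls and a match there, 5′ to 3′ on the strand of the gene, with the motif in capitals.
HJURP, chr2:233854536-233854735, minus strand: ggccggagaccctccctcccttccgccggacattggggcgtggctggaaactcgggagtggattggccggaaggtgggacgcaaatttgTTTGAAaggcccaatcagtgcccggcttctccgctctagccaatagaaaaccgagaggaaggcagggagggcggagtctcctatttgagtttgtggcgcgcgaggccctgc
NCAPG, chr4:17810779-17810978, plus strand: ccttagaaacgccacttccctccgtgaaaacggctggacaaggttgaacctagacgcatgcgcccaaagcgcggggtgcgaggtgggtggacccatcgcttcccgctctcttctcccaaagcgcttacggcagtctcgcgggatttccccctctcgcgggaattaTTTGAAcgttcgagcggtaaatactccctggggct
ANLN, chr7:36389662-36389861, plus strand: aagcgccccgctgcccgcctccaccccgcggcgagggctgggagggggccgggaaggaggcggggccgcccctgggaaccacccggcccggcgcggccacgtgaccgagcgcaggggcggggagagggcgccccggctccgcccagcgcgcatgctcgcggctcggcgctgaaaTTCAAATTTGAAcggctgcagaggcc
HSPA6, chr1:161524340-161524539, plus strand: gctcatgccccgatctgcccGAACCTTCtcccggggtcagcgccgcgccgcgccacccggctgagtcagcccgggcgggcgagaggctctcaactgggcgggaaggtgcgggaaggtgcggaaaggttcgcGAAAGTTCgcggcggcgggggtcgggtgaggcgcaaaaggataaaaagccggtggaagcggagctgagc
HSPB1, chr7:76302473-76302672, plus strand: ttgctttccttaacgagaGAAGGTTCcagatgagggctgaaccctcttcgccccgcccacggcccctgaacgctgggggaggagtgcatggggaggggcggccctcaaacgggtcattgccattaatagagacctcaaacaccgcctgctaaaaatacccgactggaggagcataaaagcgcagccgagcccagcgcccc
HSPA1A, chr6:31815343-31815542, plus strand: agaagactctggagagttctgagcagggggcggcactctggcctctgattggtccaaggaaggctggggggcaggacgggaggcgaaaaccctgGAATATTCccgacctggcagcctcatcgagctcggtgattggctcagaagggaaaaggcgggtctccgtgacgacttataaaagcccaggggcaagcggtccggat
The first 3 genes fell at both steps, by 2.05, 1.90 and 1.82 between the hairpins on the log2 scale, and the last 3 rose and then fell, by 2.27, 2.20 and 1.98. HJURP loads the centromeric histone CENPA and NCAPG is a condensin subunit.

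The identity of the cells and the libraries was checked. All 8 defining hepatocyte and HepG2 markers were expressed in every group, with a summed level of 8377 to 8795 FPKM in shTRIB3-1 and 10523 to 10834 in shTRIB3-2. None of the fibroblast, endothelial or embryonic kidney line markers reached 1 FPKM in any library, and their sums were at most 1.52 FPKM. Of 7 leukocyte markers 4 reached 1 FPKM, including LYZ, which HepG2 expressed at 509 ± 15.2 FPKM with shTRIB3-1 and 597 ± 19.3 with shTRIB3-2 (SD, n = 3 each), while PTPRC, the defining one, was at or near 0. Totals worked out from the FPKM ran from 34206726 to 36311029 fragments. Mitochondrial genes took 6.29% to 7.01% of fragments in shTRIB3-1 and 6.52% to 7.23% in shTRIB3-2, and the ranges overlapped. The Pearson correlation across tested genes was 0.996 to 0.997 between replicates and 0.981 to 0.983 between libraries of the hairpins. The hairpins differ in dose of TRIB3 loss and in sequence at once, so a gene that follows the dose and a gene that follows the sequence cannot be told apart with these groups.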

How the data were processed

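RNA-seq values of 9 HepG2 libraries (shCtrl, shTRIB3-1 and shTRIB3-2, 3 each, grouped by their labels) were used as FPKM, which the authors computed and deposited, with a column for each library and a row for each symbol. The study's methods name alignment to GRCh38 with STAR and tests with DESeq2, and the submitters' processing notes name HTSeq and R 3.2.0. Labels and methods name different library kits, and whether counting used the strand is not given in the sources used here. FPKM does not correct for composition, so a rise of abundant genes lowers the other values of a library.

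Fragments were recovered from the FPKM, and 100% of the 172769 nonzero values lay within 0.02 fragments of an integer. Genes with at least 1 FPKM in at least 3 libraries were tested on log2(FPKM + 0.1), a scale that understates changes of low genes, with limma 3.58.1 in R 4.3.3 (3 group means, all 9 libraries, mean-variance trend, two-sided p, Benjamini-Hochberg over 11265 genes). The members, gene lists and tests were chosen with earlier results of these data known. Named genes were TRIB3, the 10 largest rises and falls without overlap at a mean of at least 2 FPKM, the 3 largest of each order class and direction, the called members of each list or else the 2 with the smallest p, and the genes the study followed. Some genes that this rule names are not reported here. Positions and exon overlaps are from GENCODE 44. Fragments carry no molecular identifiers, so their numbers give counting error only. A replicate pair differed by a chi-square per degree of freedom of at least 3.13, more than sampling noise. Alternatives were other pseudocounts, filters, scalings and fold thresholds, a replicate block, libraries left out, and limma's voom on the fragments, the last chosen after the values were seen.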

Additional observations from a re-analysis of the deposited data

Results flagged for a closer look

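CSRP2, a LIM-domain protein of the muscle and cytoskeleton family, was called above shCtrl with shTRIB3-1 (log2 1.11, limma adjusted p 1.28e-06) and below it with shTRIB3-2 (-1.21, adjusted p 5.42e-07). The test of the difference between the hairpins gave -2.32 (SE 0.107, adjusted p 1.85e-08), and the 3 libraries of each group stood apart from those of the others. It was the only tested gene called in opposite directions among those called between the hairpins.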

How the results depend on the processing

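Size thresholds and low levels set the number of calls. With 1 added before taking logs in place of 0.1, 84 genes were called (4 higher and 80 lower), all among the 234, with 30 graded, 51 turning and 3 in shTRIB3-2 only. Without the level filter 427 were called (69 higher and 358 lower), with 257 turning and 44 in shTRIB3-2 only. At 5 FPKM or more 126 were called (7 higher and 119 lower), with 43 turning and 1 in shTRIB3-2 only. A fold threshold of 1.5 gave 711 calls (222 higher and 489 lower) and no fold threshold 5159 (2832 higher and 2327 lower). Quantile normalization gave 65 higher and 17 in shTRIB3-2 only. The cause of these shifts beyond the genes tested and the thresholds was not tested.

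Leaving out 1 library at a time gave 234 to 247 calls (27 to 36 higher and 201 to 220 lower), 120 to 135 graded, 101 to 109 turning, 7 to 13 in shTRIB3-2 only (13 without replicate 3 of shTRIB3-1) and 5510 to 6328 departures from the line. Deviations of same-numbered libraries correlated weakly, by -0.074 to 0.093, but all 6 knockdown libraries correlated best with their own number in the other hairpin. Whether the replicate numbers pair the libraries is thus not settled. A fit with the replicate number as a block called 234 genes, and all 234 were shared. Voom on the fragments called 270, with all 234 among them. Of 2913 values of named genes under alternatives, none reversed direction past the test, 35 no longer passed and 8 newly passed. These changes fell on AGO2, CD68, DDX5, MT1E, COX1 and ND1. The median of each list described above kept its sign under every alternative except in ER chaperones, matrix and adhesion, mitochondrially encoded, immediate early, cancer-testis and RNA interference genes and the genes the study followed.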
